A study of Mus musculus with 12 samples.

Results

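Endocrine cells are known for a pair of small regulatory RNAs, miR-7 and miR-375, which were followed here as 3 miRNAs, mmu-miR-7a-5p, mmu-miR-7b-5p and mmu-miR-375-3p (below without the mouse prefix). They are 3 of the 1549 features in a table of small RNA reads and were taken from it by name. They were chosen by measured levels in these libraries, miR-7a-5p with its high level in the diploid embryonic stem cell (ESC) line R1 known, and miR-375-3p with its high level in spermatids known. Differences of these miRNAs with R1 and with spermatids are therefore given as descriptions, with no test.

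The series profiled small RNA of mouse cells in 5 groups. Androgenetic haploid ESC, which carry only a paternal chromosome set, were of 3 lines, of which A129-2 and A129-17 had 2 libraries each and A129-6 had 3. The diploid line R1 had 2 libraries as well. Round spermatids (RS), the haploid germ cells that follow meiosis, had 3 libraries, and per the labels' protocols were sorted after Hoechst staining from testes of male 129Sv mice whose age was not given. Every sample was labelled wild type and collected by sorting, and the haploid lines were kept with LIF, an inhibitor of MEK and an inhibitor of GSK3. Each haploid line, like R1, is 1 cell line. The labels call the replicates independent, without saying whether these were separate cultures or animals. SDs and p-values therefore describe only how far the samples at hand lie apart, and that may be technical.

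Counted reads ran from 3709786 to 9176080 in the ESC libraries and from 155232 to 243714 in the spermatid libraries. The 6 spermatogenic markers, such as miR-34c-5p, summed to between 262488 and 353304 CPM (each library's counts scaled to 1e+06) in RS and to at most 1892 CPM in ESC. The 6 ESC markers, of the miR-290 and miR-302 clusters, summed to between 60459 and 97836 CPM in ESC and to between 53.3 and 1333 CPM in RS. Both labels thus matched their markers. In RS, the 5 mesenchymal markers summed to 66262, 14011 and 37362 CPM in replicates 1, 2 and 3. In ESC they summed to between 5857 and 26767 CPM, a range that holds RS replicate 2. The 8 blood and endothelial markers summed to 14394, 1559 and 7817 CPM in RS, and to between 363 and 869 CPM in ESC. All of these markers had counts in RS.

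A miRNA is cut from a hairpin whose 5' side gives the 5p arm and whose 3' side gives the 3p arm, and it represses mRNAs that pair with its seed, bases 2 to 8. miR-7 is abundant in neurons, pituitary and pancreatic islets, where it restrains genes of growth signalling and insulin secretion, and it pairs with the circular RNA Cdr1as. miR-375 is the best known islet miRNA; it is needed for a normal mass of endocrine cells and lowers insulin secretion, and it is also found in pituitary and in some epithelia.

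The mature sequences of miR-7a-5p and miR-7b-5p, from RefSeq, are shown with the seed in capitals because they decide how far the 2 miRNAs can be told apart by reads.
miR-7a-5p: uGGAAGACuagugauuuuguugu
miR-7b-5p: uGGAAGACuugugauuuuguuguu
Both have the same seed, and no other of the 1679 mature mouse miRNAs in the RefSeq table has it. Counted from the 5' end of miR-7a-5p they differ by A10U, just past the seed, and miR-7b-5p has 1 more base at its 3' end. The sources used here do not give the number of mismatches that was allowed, and the assignment of reads to miR-7b-5p is uncertain wherever miR-7a-5p is far more abundant.

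miR-7a-5p is made from 2 hairpins with the same 5p arm. Mir7-1 lies on the minus strand of chromosome 13 (58392779 to 58392886, GRCm38.p6), within an intron of Hnrnpk, which encodes an RNA-binding protein and is transcribed on the same strand. Mir7-2 lies on the plus strand of chromosome 7 (78888277 to 78888373) and Mir7b on the plus strand of chromosome 17 (56242988 to 56243098). Mir375 lies on the minus strand of chromosome 1 (74900658 to 74900721). The last 3 overlap no other gene of the GENCODE M21 annotation. The 3p arms tell the hairpins apart, and are shown with the bases that differ among them in capitals.
miR-7a-1-3p: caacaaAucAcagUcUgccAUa
miR-7a-2-3p: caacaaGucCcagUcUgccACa
miR-7b-3p: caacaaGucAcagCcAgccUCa
Of 22 bases, miR-7a-1-3p and miR-7a-2-3p differ at 3, miR-7a-1-3p and miR-7b-3p at 5, and miR-7a-2-3p and miR-7b-3p at 4.

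mmu-miR-7a-5p was among the most abundant miRNAs of R1, at 59453 and 48000.1 CPM in replicates 1 and 2, which is 5.95% and 4.80% of counts and rank 4 and 6 of all features. Among the haploid lines, A129-2 had 1563 and 3896 CPM, A129-6 had 1782, 1931 and 2372 CPM, and A129-17 had 1805 and 1094 CPM. It was thus far lower in each of the 7 haploid libraries than in either R1 library, with ranks between 28 and 63. In RS it stood at 5736, 15467 and 7979 CPM in replicates 1, 2 and 3, above every haploid and below every R1 library relative to total counts. RS replicate 2, the highest, also had the highest sum of ESC markers in RS, 1333 CPM against 53.3 and 96.0 in replicates 1 and 3, and of neuronal markers, 5205 CPM against 1777 and 2460. The part of these in the result was not tested.

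**Figure D1:**
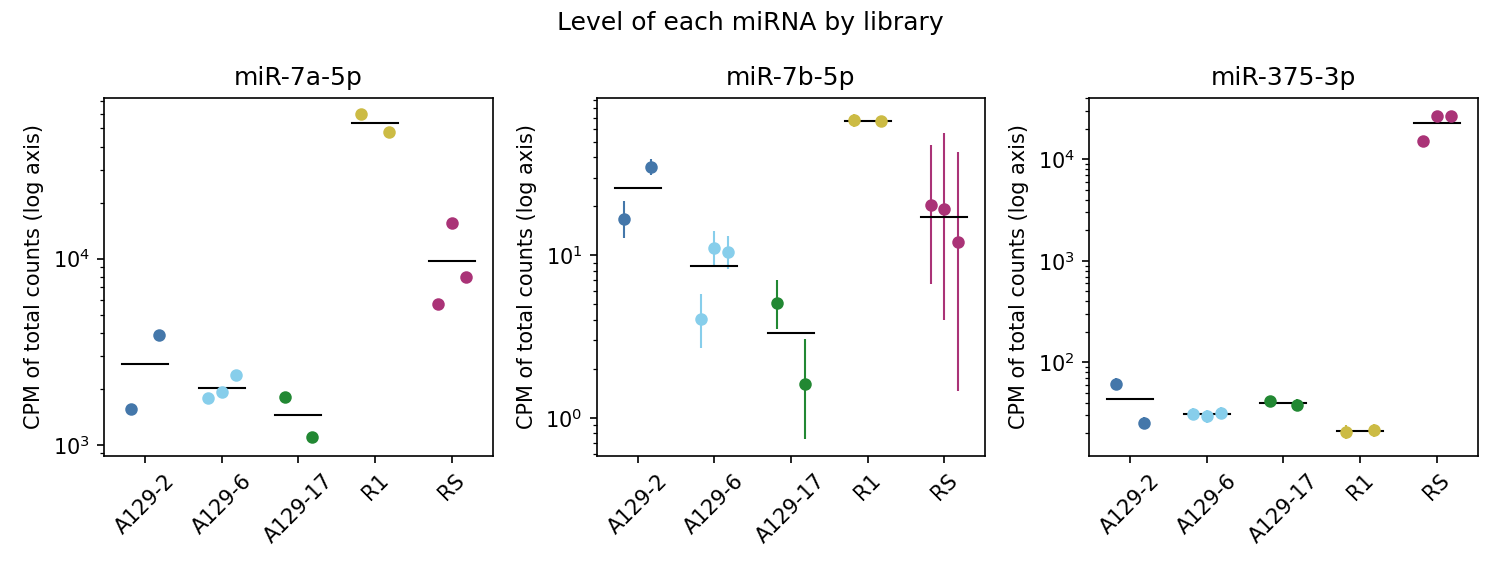
CPM of total counts (log axis) of miR-7a-5p, miR-7b-5p and miR-375-3p in each library of the 5 groups, with exact 95% intervals for counting error and black lines at group means. miR-7a-5p and miR-7b-5p were highest in R1, at 48000.1 CPM or more and 66.7 CPM or more, and miR-375-3p was highest in RS, at 15256 CPM or more.

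The mean level of miR-7a-5p was 53727 ± 8099 CPM in R1 (SD, n = 2) and 9727 ± 5096 CPM in RS (SD, n = 3). A129-2 averaged 2730 ± 1649 CPM (SD, n = 2), A129-6 averaged 2028 ± 307 (n = 3) and A129-17 averaged 1450 ± 502 (n = 2). The ranges of R1 and RS, and of RS and A129-2, did not overlap, while those of A129-2 and A129-6, and of A129-6 and A129-17, did. The difference between A129-2 and A129-6, 701 CPM, was smaller than the SD of A129-2. In the fit of the ESC libraries with TMM scaling, the log2 difference of the haploid lines from R1 was -4.52 (SE 0.37), or 23.0-fold lower in the haploid lines.

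Differences between the haploid lines and R1 varied with the base composition of the miRNAs, and miR-7a-5p has 34.8% GC. Among 58 well-expressed miRNAs under 40% GC the median log2 difference was -2.82, and among 62 with 60% GC or more it was 1.89. After a correction for GC, chosen after the data had been seen, which removes whatever varies with GC, miR-7a-5p stood at -2.30 (SE 0.38). With all 12 libraries in the fit it stood at -3.65 (SE 0.46). It was lower in the haploid lines in all 16 alternatives.

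Between RS and the haploid lines the miR-7a-5p difference moved with the scaling and with single libraries. The log2 difference of RS from the haploid lines was 0.36 (SE 0.44) with TMM and 2.28 (SE 0.40) relative to total counts, and it was -0.06 without A129-2 replicate 1, -0.13 without RS replicate 2 and 1.27 without A129-2 replicate 2. The median over all features in this comparison was -2.79 with TMM and -1.29 with total counts. Normalised with TMM over all libraries, the group means were 4188 CPM in RS and 3938 in A129-2, 3288 in A129-6 and 2707 in A129-17, against 40974 in R1. From R1, RS differed by -3.29 on the log2 scale (SE 0.60), with -4.65 to -2.47 over the alternatives; the lowest value was that without RS replicate 2. All samples are bulk RNA, so fewer cells of a type and less RNA per cell cannot be told apart.

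The 3p arms were rare, but they differed between the hairpins. miR-7a-1-3p, the arm of the Hnrnpk intron, had 135 and 143 counts in R1 (17.7 and 15.6 CPM), and between 0 and 11 counts in the haploid libraries, at most 1.21 CPM. In R1 it was thus well above each haploid library, as miR-7a-5p was. Its mean CPM was 23.9 times as high in R1 as over the 3 haploid lines, against 26.0 times for miR-7a-5p. miR-7a-2-3p, the arm of the chromosome 7 hairpin, had 1 and 11 counts in R1 (0.131 and 1.20 CPM) and 0 to 7 counts in the haploid libraries (at most 1.25 CPM), so that these ranges overlapped. Of the counts of both arms in R1, miR-7a-1-3p took 135 of 136 (99.3%, exact 95% interval 96.0 to 100.0) and 143 of 154 (92.9%, 87.6 to 96.4). Among the haploid lines it took 14 of 20 counts in A129-2 and 19 of 26 in A129-6, but 2 of 9 in A129-17, and in RS it took 9 of 20. The arms also differ in base composition, with 40.9% GC in miR-7a-1-3p and 54.5% in miR-7a-2-3p. Among well-expressed miRNAs the median log2 difference of the haploid lines from R1 was -1.23 at 40% to under 50% GC. At 50% to under 60% GC it was 0.72. The part of GC in the difference between the arms, and in their shares, was not tested.

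**Figure D2:**
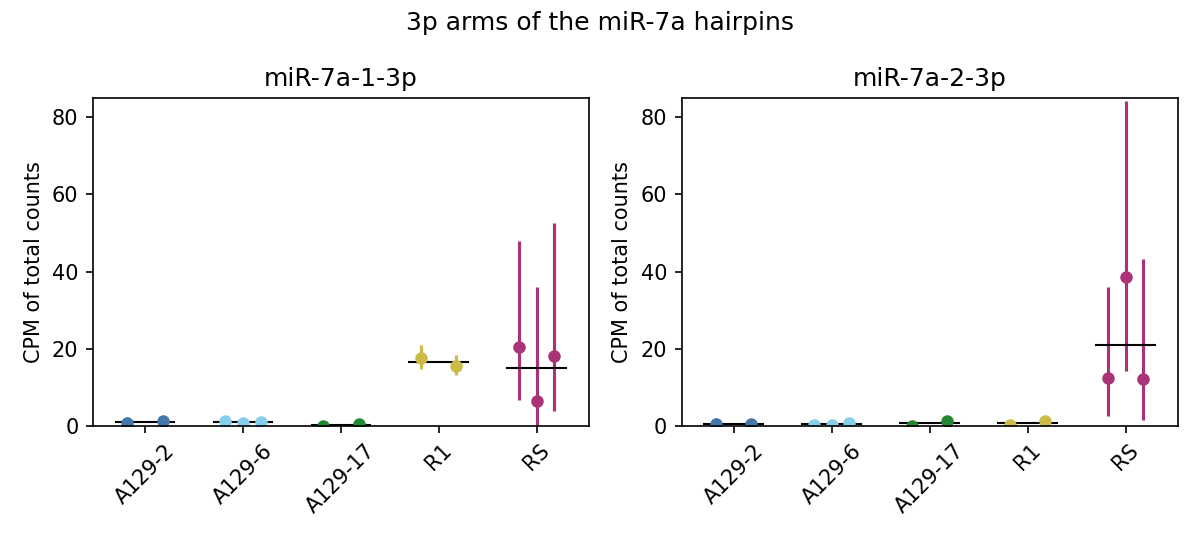
CPM of total counts of the 3p arms of the 2 miR-7a hairpins in each library, with exact 95% intervals for counting error and black lines at group means. Both R1 libraries stood at 15.6 CPM or more for miR-7a-1-3p and at 1.20 CPM or less for miR-7a-2-3p, while in RS both arms rested on 1 to 6 counts a library.

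In RS the 3p arms had 5, 1 and 3 counts for miR-7a-1-3p and 3, 6 and 2 for miR-7a-2-3p, which is too few to rank them. Together they took 0.569%, 0.291% and 0.375% of miR-7a counts in RS replicates 1, 2 and 3, against 0.0300% and 0.0350% in R1 and at most 0.147% in a haploid library. The lower exact 95% bounds in RS replicates 2 and 3, 0.117% and 0.122%, lay below the highest haploid share. miR-7b-3p had 1 and 0 counts in R1, 0 to 3 in the haploid libraries and 0 in RS, where 3 counts would have been between 12.3 and 19.3 CPM. It passed the filter on low counts in no fit, and miR-7a-2-3p passed it only in the fit with RS, where its differences are not tested.

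mmu-miR-7b-5p, the second miRNA with this seed, was scarce. R1 had 516 and 612 counts (67.6 and 66.7 CPM), A129-2 had 62 and 317 (16.7 and 34.8 CPM), and A129-6 had 29, 70 and 76 (4.02, 11.1 and 10.4 CPM). A129-17 had 35 and 9 counts (5.08 and 1.61 CPM), and RS had 5, 3 and 2 (20.5, 19.3 and 12.0 CPM). R1 was above all other groups, A129-17 was the lowest by its mean, and A129-2 overlapped with RS. The counting intervals of RS were wide, from 1.45 to 43.3 CPM in replicate 3.

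In order of its mean, R1 had 67.2 ± 0.65 CPM of miR-7b-5p (SD, n = 2), A129-2 had 25.8 ± 12.8 (n = 2), RS had 17.3 ± 4.61 (n = 3), A129-6 had 8.53 ± 3.92 (n = 3) and A129-17 had 3.34 ± 2.46 (n = 2). Neighbouring groups in that order did not overlap, except A129-2 with RS and A129-6 with A129-17. The log2 difference of the haploid lines from R1 was -2.66 (SE 0.47). With 33.3% GC it moved most under the GC correction, to -0.22 (SE 0.53). From R1, RS differed by -2.67 (SE 0.73), and without RS replicate 2 by -3.68. Against the haploid lines RS stood at -0.88 (SE 0.68) with TMM and at 0.95 (SE 0.64) with total counts, so no direction can be given.

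The share of miR-7b-5p in the miR-7 counts does not depend on scaling between libraries. A129-2 had 1.06% and 0.886%, A129-6 had 0.225%, 0.573% and 0.438%, and A129-17 had 0.281% and 0.147%. R1 had 0.114% and 0.139%, and RS 0.356%, 0.125% and 0.150%. Both A129-2 libraries were above all other libraries, and both R1 libraries were below every haploid library. The lowest haploid share, that of A129-17 replicate 2, rested on 9 counts of miR-7b-5p. Its exact 95% interval, 0.0670% to 0.278%, held both R1 shares. At the depth of RS, the exact 95% intervals of its shares reached from 0.0182% to 0.830%.

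**Figure D3:**
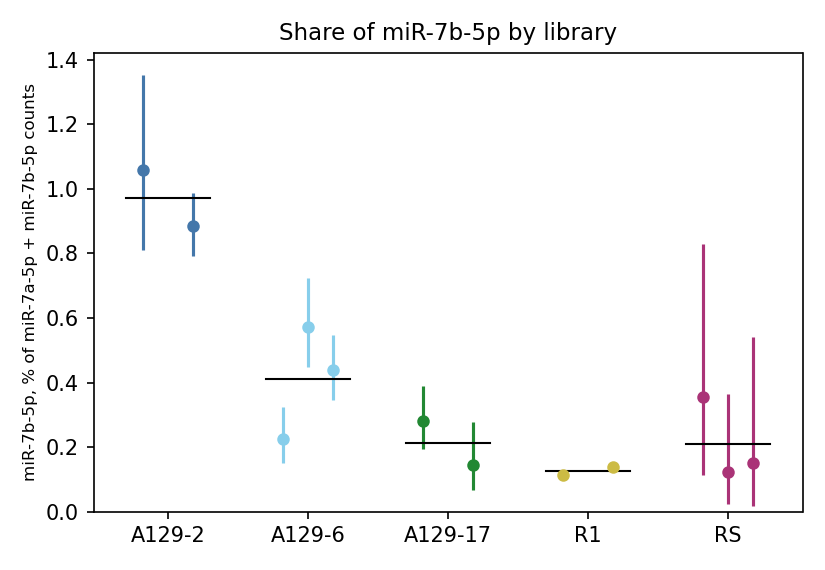
Share of miR-7b-5p in the summed counts of miR-7a-5p and miR-7b-5p in each library, in percent, with exact 95% intervals for counting error and black lines at group means. The A129-2 libraries, at 0.886% and 1.06%, are above the other 10 libraries, and R1 lies at 0.114% and 0.139% with narrow intervals.

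Whether the haploid lines differed among themselves was not part of the choice of the 3 miRNAs and was tested. In A129-2 the share of miR-7b-5p averaged 0.972% ± 0.121 (SD, n = 2), while A129-6 averaged 0.412% ± 0.175 (n = 3) and A129-17 averaged 0.214% ± 0.0949 (n = 2). An exact permutation test over the 7 libraries gave p = 0.0286 for a difference between lines, where the smallest p that the 210 arrangements allow is 0.00952. This was the only share tested. With the log2 ratio of the counts in place of the share, the exact p was 0.0571. With an A129-6 library left out each line has 2 libraries, and the arrangements then allow no p under 0.05. The exact p was 0.0667, the smallest they allow, without A129-6 replicate 1, and 0.133 without A129-6 replicate 2 or 3. These tests cannot tell whether the call would hold. Most tests that left 1 library in A129-2 or in A129-17 did not pass.

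By level, 0 of the 3 miRNAs passed the test over the 3 lines (edgeR's quasi-likelihood F-test, Benjamini-Hochberg adjusted over 757 features), in which 3.83% of all features passed. miR-7a-5p had an adjusted p = 0.759 and miR-375-3p an adjusted p = 0.557. miR-7b-5p had an adjusted p = 0.0938 and an unadjusted p = 0.00665. Its adjusted p passed in 6 of 16 alternatives, among them DESeq2 (0.0114), no filter (0.000204) and the fits without A129-6 replicate 3 (0.0351), A129-17 replicate 1 (0.0279) or R1 replicate 1 (0.0434), and was highest, at 0.392, without A129-2 replicate 2. The sum of miR-7a-5p and miR-7b-5p, tested because their reads may be mixed, had an adjusted p = 0.749. The count of all features behind the 3.83% was 29, and it ran from 0, without A129-6 replicate 1 or 2, to 80 without A129-6 replicate 3.

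Between pairs of lines, the log2 difference of miR-7b-5p in A129-17 from A129-2 was -2.52 (SE 0.71, adjusted p = 0.0708 by edgeR, 0.00656 by DESeq2), which did not pass edgeR's threshold. Nor did that of A129-6 against A129-2 (log2 -1.41, SE 0.59, adjusted p = 0.284 by edgeR) or that of A129-17 against A129-6 (-1.11, SE 0.66, adjusted p = 0.397). For A129-17 against A129-2 the call was made in 7 of 16 alternatives, among them no filter (adjusted p = 0.000534 by edgeR) and the fits without A129-2 replicate 1 (0.0390), A129-6 replicate 3 (0.0329), A129-17 replicate 1 (0.0239) or R1 replicate 1 (0.0418). It was farthest from it without A129-2 replicate 2 (log2 -1.45, adjusted p = 0.341 by edgeR) and without A129-17 replicate 2 (-1.87, adjusted p = 0.205). For A129-6 against A129-2 the call was made in 1 of 16, with no filter (adjusted p = 0.0409 by edgeR), and the log2 difference was -0.33 without A129-2 replicate 2. edgeR called 0 of 757 features between A129-17 and A129-2, with 181 at an unadjusted p under 0.05 and 72 called by DESeq2. It called 0 between A129-17 and A129-6, with 123 and 29, and 18 (2.38%) between A129-6 and A129-2, with 1.85% higher and 0.528% lower in A129-6. The differences of miR-7a-5p between lines ran from -0.54 (SE 0.51) to -0.24 (SE 0.47), and those of miR-375-3p from -0.11 (SE 0.38) to 0.57 (SE 0.38), all with an adjusted p of 0.454 or more. Without A129-2 replicate 2 the miR-7a-5p differences from A129-2 turned to 1.03 for A129-6 and 0.72 for A129-17. Between A129-17 and A129-6 that of miR-7a-5p turned in 4 of 16 alternatives, reaching 0.18 without A129-6 replicate 3, so no direction between lines can be given. Within 2 SE on either side, the reported differences of miR-7a-5p and miR-375-3p leave room for over 2-fold between lines. The exception is miR-375-3p between A129-6 and A129-2 (-0.11, SE 0.38).

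mmu-miR-375-3p showed the other pattern, high in RS and low in the 9 ESC libraries. In RS it stood at 15256, 27037 and 26839 CPM in replicates 1, 2 and 3, from 3718, 4197 and 4474 counts, which is rank 11, 7 and 7. Among ESC, A129-2 had 61.2 and 25.5 CPM, A129-6 had 31.2, 29.3 and 32.0, A129-17 had 41.8 and 38.4, and R1 had 20.4 and 21.4. No ESC library came near RS, and both R1 libraries were below every haploid library.

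The mean of miR-375-3p was 23044 ± 6746 CPM in RS (SD, n = 3). A129-2 followed with 43.3 ± 25.2 CPM (n = 2), A129-17 with 40.1 ± 2.43 (n = 2), A129-6 with 30.8 ± 1.41 (n = 3) and R1 with 20.9 ± 0.65 (n = 2). A129-2 overlapped with A129-17, and its SD was larger than the gap between any 2 of the haploid means. The ranges of A129-17, A129-6 and R1 did not overlap with each other. RS exceeded the haploid lines by a log2 difference of 7.49 (SE 0.36) and R1 by 9.32 (SE 0.65). Over the alternatives the differences ran from 7.32 to 9.26 and from 8.30 to 10.11, with the highest values from total-count scaling and the lowest without RS replicate 2. Without A129-6 replicate 1 the difference from R1 was 8.69. Haploid lines and R1 differed by 0.98 (SE 0.36), and by 1.83 (SE 0.42) with all 12 libraries in the fit.

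The wide spread of miR-375-3p in A129-2 had no match in the other ESC groups. Its counts were 227 and 232 in A129-2 replicates 1 and 2, which had 3709786 and 9102467 counts in all. In A129-2 the SD was 58.3% of the mean, while A129-17 had 6.05%, A129-6 had 4.56% and R1 had 3.11%. The spread of miR-375-3p in A129-2 came with this gap in depth. It also came with a gap in mesenchymal markers, which summed to 26767 CPM in A129-2 replicate 1 and 6685 CPM in replicate 2. The parts of depth and of these markers in the spread were not tested. In RS the lowest library, replicate 1, also had the highest sums of mesenchymal and of blood and endothelial markers, 66262 and 14394 CPM, and the lowest sum of spermatogenic markers, 262488 CPM. The part of these in the spread of miR-375-3p was not tested. The gonadal somatic markers miR-202-5p and miR-202-3p summed to between 90.0 and 142 CPM in RS.

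The miRNAs with the pattern most like each of the 3 over the 5 groups were found by the root mean square difference of centred mean log2 normalised CPM, among 570 candidates. Nearest to miR-7a-5p were miR-542-3p (0.25 log2 units), of an X-linked cluster, miR-101b-3p (0.29) and miR-16-1-3p (0.34). miR-542-3p stood at 627 ± 14.5 CPM in R1 (SD, n = 2) and at 88.9 ± 54.9 in RS (n = 3), and between 5.66 and 27.8 CPM in the haploid libraries. Both miRNAs were highest in R1. The lowest RS library of miR-542-3p, at 25.8 CPM, lay within the range of the haploid libraries.

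Nearest to miR-7b-5p was miR-322-5p (0.17), of the same X-linked cluster as miR-542-3p, with 54.5 ± 3.21 CPM in R1 (SD, n = 2) and 16.7 ± 7.86 CPM in RS (SD, n = 3). A129-2 had 24.8 ± 7.29 CPM of it (n = 2), A129-6 had 9.26 ± 5.23 (n = 3) and A129-17 had 3.41 ± 0.72 (n = 2). It shared with miR-7b-5p the descent from A129-2 to A129-17. miR-3535 (0.46) and miR-374b-5p (0.47) came next.

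Nearest to miR-375-3p were miR-3471 (0.61), miR-34b-3p (0.68), of a miRNA family abundant in meiotic and later male germ cells, and a predicted miRNA without a miRBase name (0.72). miR-34b-3p stood at 9258 ± 2554 CPM in RS (SD, n = 3) and at most at 14.8 CPM in ESC. The predicted miRNA had 166 counts in RS and 0 in every ESC library. With RLE or total-count scaling, 2 of the 3 nearest were shared with these for miR-7a-5p and miR-7b-5p. For miR-375-3p 2 were shared with RLE and 1 with total-count scaling. Points compared here are group means that share their libraries and scaling, and nothing on common control follows from them.

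**Figure D4:**
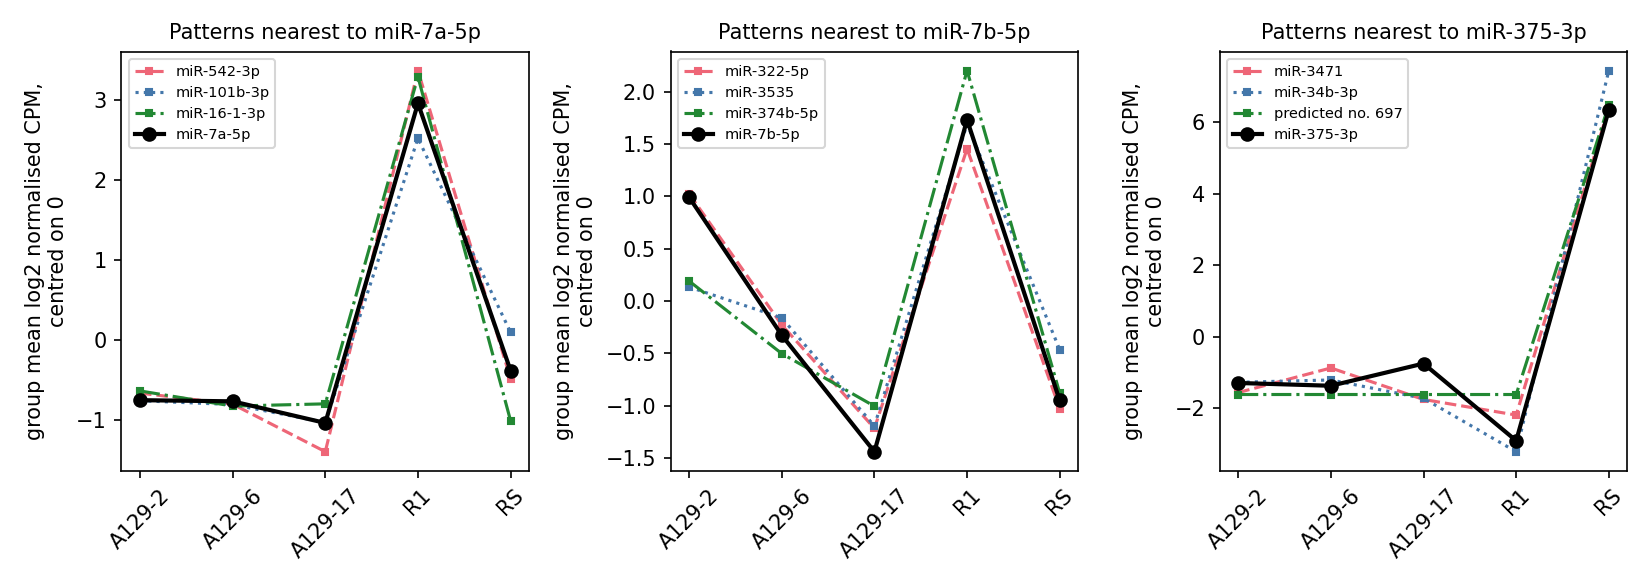
Group mean log2 normalised CPM, centred on 0 for each miRNA, over the 5 groups, for each of the 3 miRNAs (black) and the 3 miRNAs nearest to it (coloured). miR-7a-5p and its neighbours peak in R1, miR-7b-5p and its neighbours also step down from A129-2 to A129-17, and miR-375-3p and its neighbours rise in RS.

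Between the haploid lines and R1, other miRNAs known from endocrine cells and neurons did not move as a group. The list of these, and those of exocrine pancreas and neurons below, were drawn up with earlier results of these data known. P-values of their members therefore describe these libraries and are no independent test. Of 19 listed, none of them the 3 miRNAs above, 18 were in the table and 15 could be tested between the haploid lines and R1. There 3 were higher in the haploid lines, 5 lower and 7 did not pass, where 70.5% of all features passed, 35.3% in each direction. The median log2 difference of the list was 0.24, against 0.33 over all features. With all 12 libraries in the fit 7 were higher, where 66.0% of the 518 features called were higher, against 50.0% of 534 in the reported fit. After GC correction 5 were higher, where 46.5% of the 400 called were.

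miR-30d-5p and miR-182-5p were the most abundant of the list. miR-182-5p, a sensory and neuroendocrine miRNA of the miR-183 cluster, was lower in haploid than in R1 cells (log2 -4.01, SE 0.26, adjusted p = 3.90e-09 by edgeR), from 47457 CPM on average in R1 to between 1785 and 3500 in the line means. miR-30d-5p, known in islets for raising insulin expression, stood at 0.24 (SE 0.32, adjusted p = 0.508 by edgeR).

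Against the haploid lines, 6 of 17 tested members of the list were higher in RS, 5 lower and 6 did not pass, where 65.4% of all features passed (20.8% higher and 44.5% lower). The median was -0.09, against -2.79 over all features. Against R1, 3 were higher in RS, 6 lower and 8 did not pass, where 53.0% passed (19.4% higher and 33.6% lower). The median was -0.53, against -2.04. Relative to total counts 9 members were higher and 3 lower than in the haploid lines, where 53.9% of the 464 features called were higher, against 31.9% in the reported fit. Against R1 5 were higher and 4 lower, where 46.5% of the 400 called were higher, against 36.5%. With RLE scaling, and without A129-6 replicate 1, A129-17 replicate 2 or RS replicate 3, the lower members against the haploid lines also numbered 3. For miR-182-5p RS stood at -1.24 against the haploid lines (SE 0.42, adjusted p = 0.0117 by edgeR), but at 0.52 relative to total counts. Its call was made in 8 of 17 alternatives. It was lost with RLE scaling (adjusted p = 0.0976 by edgeR) and without A129-2 replicate 2 (0.282), A129-17 replicate 2 (0.168), A129-17 replicate 1 (0.116), RS replicate 3 (0.0973), A129-6 replicate 1 (0.0590), R1 replicate 2 (0.0561) or R1 replicate 1 (0.0543). miR-30d-5p stood at -0.09 (SE 0.40, adjusted p = 0.863 by edgeR), and at 1.73 relative to total counts.

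miR-184-3p and miR-204-5p, which are known from islets, were singled out because they were high in RS, so their values are a description with no test. miR-184-3p had a log2 difference of 3.70 from the haploid lines (SE 0.29) and 7.11 from R1 (SE 0.56). miR-204-5p had 4.49 (SE 0.40) and 6.48 (SE 0.69). In CPM they reached means of 4921 and 248 in RS (n = 3), well below the 23044 of miR-375-3p. Between the lines, 1 of 15 members of the list passed the F-test, where 3.83% of all features did. It was miR-383-5p (adjusted p = 0.0442 by edgeR), which is named because it was the only one.

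Of 4 miRNAs known from exocrine pancreas, the compartment beside the islets, 3 were in the table. miR-148a-3p was lower in the haploid lines than in R1 (log2 -4.27, SE 0.19, adjusted p = 8.54e-11 by edgeR) and higher in RS than in the haploid lines (3.42, SE 0.38, adjusted p = 3.69e-08). Between RS and R1 it stood at -0.00 (SE 0.52, adjusted p of 1), and at -1.01 without RS replicate 2 (adjusted p = 0.0496 by edgeR). miR-217-5p, an acinar miRNA, passed the filter on low counts only in the fit with RS, where it was highest. Its log2 difference of RS from the haploid lines, 3.30 (SE 1.15), is therefore a description with no test. Its mean in RS was 13.2 ± 5.65 CPM (SD, n = 3), where 3 counts in a library make 12.3 to 19.3 CPM. The difference thus rests on a few reads a library. miR-217-5p had 0 counts in R1, and miR-216b-5p had at most 0.145 CPM in a group mean. The neuronal markers miR-124-3p and miR-9-5p summed to between 3232 and 3273 CPM in R1 and between 276 and 610 CPM in the haploid libraries, most of it miR-9-5p. miR-9-5p had a log2 difference of -2.93 between the haploid lines and R1 (SE 0.19, adjusted p = 2.85e-09 by edgeR), while miR-124-3p did not pass (-0.82, SE 0.38, adjusted p = 0.0640 by edgeR). Their part in the miR-7a-5p difference was not tested.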

How the data were processed

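Small RNA reads of 12 mouse libraries were used as the authors' deposited raw counts per miRNA, with no normalisation. Per the submitters' processing notes, Bowtie 0.12.9 and DESeq2 were used. Build, miRBase release, mismatches and the handling of reads with several matches are not given in the sources used here. All 12 columns were assigned by name.

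CPM are counts over the library total with exact Clopper-Pearson 95% intervals, which cover counting error only, since PCR reads carry no molecular identifiers. Counts were tested in R 4.3.3 with edgeR 4.0.16: filterByExpr by group (minimum count 10, minimum total 15), TMM, and the quasi-likelihood F-test with a mean for each group. P-values were adjusted over all features by Benjamini-Hochberg and called under 0.05. Comparisons among ESC used the 9 ESC libraries, and those with RS all 12. The haploid lines weighed equally. The share of miR-7b-5p was tested by full enumeration over the 7 haploid libraries. The fits were also run on simulated counts with changes of a fixed size and no trend with GC. That run cannot tell how the fits deal with such a trend.

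Alternatives were RLE and total-count scaling, DESeq2 1.42.0, no filter, all 12 libraries, a replicate block and each library left out; a loess correction for GC content over the 80.4% of tested features with a RefSeq sequence was added after the data had been seen. Named were the 3 miRNAs, their other arms, the 3 nearest patterns each (prior count 2, at least 10 CPM in a group mean), the 2 most abundant members of each list, and those said to be chosen later. The 3 miRNAs and the lists were chosen with earlier results of these data known. Sequences and coordinates are from RefSeq (GRCm38.p6), in which 2 of the 3 mature miRNAs matched by name.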

Additional observations from a re-analysis of the deposited data

Results flagged for a closer look

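The share of miR-7b-5p in the miR-7 counts differed between the haploid lines by the exact permutation test (p = 0.0286 over 7 libraries), from 0.972% in A129-2 to 0.412% in A129-6 and 0.214% in A129-17. It stands here because that test found a difference between groups. The numbers of miR-7b-5p reads behind it were 379, 175 and 44. The test was not passed with the log2 ratio of the counts (exact p = 0.0571), nor in most tests that left 1 library in A129-2 or in A129-17. With an A129-6 library left out it could not be passed, since the arrangements then allow no p under 0.05.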

How the results depend on the processing

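Of the features that differed over the 3 lines, 29 in the reported fit, the count was 0 with total-count scaling, 2 with all 12 libraries, 72 with the replicate block, 82 with no filter and 90 with DESeq2, and 0 to 80 with a library left out. Between A129-6 and A129-2 (18) the count was 2 with total-count scaling, 8 with all 12 libraries, 41 with no filter and 42 with DESeq2, and 0 to 32 with a library left out. Between A129-17 and A129-2 (0) it was 13 with RLE scaling, 15 with GC correction, 60 with no filter, 70 with the replicate block and 72 with DESeq2, and 0 to 70 with a library left out. Between A129-17 and A129-6 (0) it was 18 with no filter, 29 with DESeq2 and 34 with the replicate block, and 0 to 40 with a library left out. The cause was not tested. The counts against R1 (534) and of RS against the haploid lines (527) and R1 (427) stayed within 1.5 times; with all 12 libraries 66.0% of those against R1 were higher, against 50.0%, and with total-count scaling 53.9% of those of RS against the haploid lines, against 31.9%, and 46.5% against R1, against 36.5%.

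Signs turned in RS against the haploid lines for miR-7b-5p (0.95 with total-count scaling), for miR-7a-5p (-0.06 without A129-2 replicate 1 and -0.13 without RS replicate 2, against 1.27 without A129-2 replicate 2), and with total-count scaling for miR-30d-5p (1.73) and miR-182-5p (0.52). Between haploid lines, where miR-7a-5p passed no test, its sign turned without A129-2 replicate 2 (1.03 for A129-6 and 0.72 for A129-17, each against A129-2). The exact p for the share of miR-7b-5p was 0.0571 with the log2 ratio and 0.0333 to 0.133 with a library left out. The adjusted p of the summed miR-7 between lines was 0.275 to 0.932 with a library left out. Same-numbered libraries did not deviate together, so the numbers were not taken to pair them. Over 12 pairs of ESC libraries r ran from -0.18 to 0.14, with 1 over 0.1. Some of these r repeat, because deviations within a group of 2 libraries mirror each other, so the 12 pairs are not all separate evidence. With the replicate block, in which A129-6 replicate 3 stands alone with its number, miR-7b-5p passed over the lines (adjusted p = 0.0422) and between A129-17 and A129-2 (0.0457). Depth limits miR-7b-5p, the 3p arms, miR-137-3p and miR-217-5p in RS, which rest on at most 6 counts a library.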
